A study of Oryza sativa with 9 samples.

Results

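Chitinases cut chitin, the polymer of N-acetylglucosamine in fungal cell walls and insect cuticles, which plants themselves do not make. Plant chitinases fall into glycoside hydrolase families GH19 and GH18. Many are secreted or vacuolar defence proteins, and several are also induced by osmotic or salt stress. The 8 rice genes described here were chosen by name and locus number from the list of GH19 chitinases Cht1, Cht2, Cht3, Cht4, Cht5, Cht6, Cht8 and Cht10. All 8 were found among the 34119 genes of the table.

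Seedlings 14 days old were treated for 3 h with 20% PEG8000, an osmotic agent that lowers the water available to the roots. The wild type was the rice NIP. It was compared with 1 line, SDG708-YFP-1, which overexpresses SDG708, a SET-domain histone methyltransferase, fused to YFP. Both genotypes received PEG, so the comparison is of genotypes under PEG, and no untreated sample is in it. Each genotype had 3 libraries of polyadenylated RNA from seedlings, and each wild-type repeat was sequenced on 2 lanes, which gives 9 samples in all. The sources used here do not name the promoter driving the fusion, and with 1 line the effects of the fusion cannot be told apart from those of the insertion. Lanes are labelled for the wild type only, so lane cannot be told apart from genotype. Nothing in the labels says that repeats were grown separately, and every p-value therefore reflects only how much these libraries vary, possibly for technical reasons.

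The library sizes behind the FPKM values (fragments per kilobase of gene and per M reads) were 13.3 to 24.9 M, as implied by their steps. The reads recovered over the genes ran from 13.2 to 26.1 M per library. The locus number looked up for SDG708 was not among the genes with values, so the overexpressed gene was not read directly. LOC_Os04g34976, whose number is next to it and whose relation to SDG708 the files do not give, was at 5.15 ± 0.665 FPKM in the wild type against 149.9 ± 3.70 FPKM in the line (SD, n = 3). On the other side, LOC_Os04g34984 was at 6.04 ± 0.862 against 5.03 ± 0.568 FPKM. Relative to sampling noise, replicates of the wild type were further apart than those of the overexpression line. For genes with enough reads, the variance between a pair of wild-type libraries was 13.2 to 29.4 times the sampling noise, against 2.1 to 3.83 times for pairs of the overexpression line. For the same real spread this ratio grows with depth. Library sizes were 17.4 to 24.9 M in the wild type against 13.3 to 18.1 M in the line. Of the 18569 genes tested, 2654 rose and 3706 fell in the overexpression line (limma on log2(FPKM + 1), adjusted p below 0.05), so that 41.7% of the called genes were higher. That split was 54.6% with FPKM rescaled to equal sums and 64.1% with scaling by each library's recovered reads, whose sum was 1.049 to 1.071 times the library size behind the FPKM in the wild type and 0.971 to 0.996 times in the line. Without wild-type replicate 3, or without overexpression replicate 1, 2 or 3, the counts fell to between 1748 and 1845 genes higher and between 1960 and 2225 lower.

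Of the 8 chitinase genes, Cht8 rose and Cht4 and Cht5 fell in the overexpression line, and the other 5 did not pass the test. The 1 gene that rose stands against 14.3% of all tested genes, and the 2 that fell against 20.0%, so neither share is far from the background for a list of 8. All 8 genes passed the filter of at least 1 FPKM in at least 3 libraries. The libraries of the genotypes did not overlap for 4 of the 8, against 50.6% of all tested genes. The median log2 fold change of the 8 was 0.01, with a range from -0.50 to 1.12, against a median of -0.04 over all tested genes. Because the RNA came from seedlings, fewer cells of a type and less RNA per cell cannot be told apart. Levels of different genes are compared here as FPKM, and the gene lengths implied by the values follow whole gene spans, apparently with introns, which limits comparisons between genes.

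**Figure D1:**
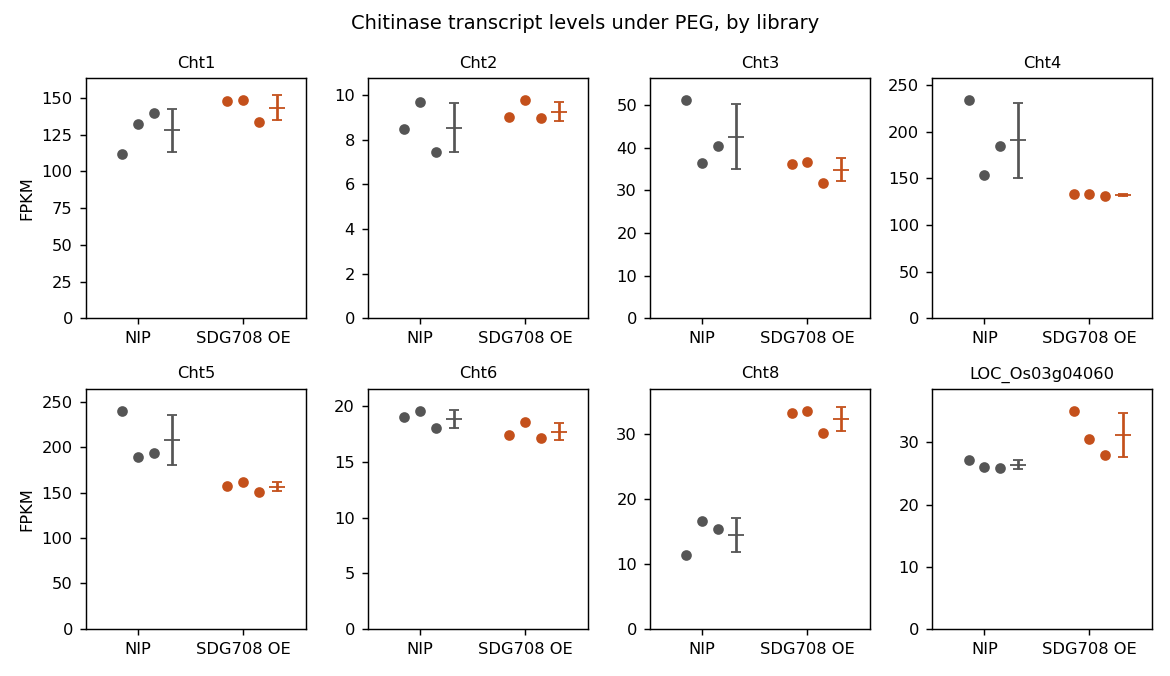
FPKM of the 8 chitinase genes in each library, with wild type (NIP) in grey and the SDG708 overexpression line (SDG708 OE) in orange; each point is 1 library and the bar beside the points is the mean with 1 SD, n = 3. Each panel has its own axis, which starts at 0. The groups separate for Cht4, Cht5, Cht8 and LOC_Os03g04060, and the points of the other 4 genes overlap.

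Cht8 (LOC_Os10g39680, chromosome 10) is listed in RefSeq with the synonym OsChia2a. Its FPKM was 11.4, 16.5 and 15.3 in the wild-type libraries and 33.3, 33.6 and 30.2 in those of the overexpression line. Every overexpression library lay above every wild-type library, and the lowest of the overexpression line was well above the highest wild-type value. The mean rose from 14.4 ± 2.66 to 32.3 ± 1.86 FPKM (SD, n = 3), or 2.24-fold, with a log2 fold change of 1.12 ± 0.12 (SE; 95% interval 0.84 to 1.41; limma, adjusted p = 0.000525). The exact permutation test gave p = 0.1, which is the smallest that 3 against 3 libraries allow. Across the 19 other settings tried, Cht8 passed in all 19, with log2 fold changes from 0.95 to 1.23 and adjusted p up to 0.00448.

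Cht4 (LOC_Os04g41620) and Cht5 (LOC_Os04g41680) carry nearby locus numbers on chromosome 4. RefSeq lists Cht4 with the synonym OsChia2b, and Cht5 with the synonym OsChia4a, a class IV chitinase. Cht4 was at 233, 154 and 185 FPKM in the wild type and at 133, 133 and 131 FPKM in the overexpression line. All 3 overexpression libraries lay below all 3 of the wild type, and they were almost equal, with a coefficient of variation of 0.759% against 21.1% in the wild type. Cht4 fell by 0.50 on the log2 scale, with an interval from -0.81 to -0.19, from a mean of 190.6 ± 40.3 to 132 ± 1.0 FPKM (SD, n = 3; limma, adjusted p = 0.0225), and was 1.44-fold lower. This call is not firm. It was lost without wild-type replicate 3 (adjusted p = 0.064) and without overexpression replicate 1, 2 or 3 (0.0654, 0.0676 and 0.0717, limma). It was lost too with no filter on low values (0.059), with scaling by recovered reads (0.0508) and with overexpression replicates 1 and 2 counted as 1 sample (0.0668), while the log2 fold change stayed between -0.65 and -0.35.

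Cht5 was the most abundant of the 8 in both genotypes. Its FPKM was 239.7, 189 and 194 in the wild type and 157, 161 and 151 in the overexpression line. The groups did not overlap, and wild-type replicate 1 was the highest of all 6 libraries. Its mean was 1.33-fold lower in the overexpression line, at 157 ± 5.06 against 208 ± 27.9 FPKM (SD, n = 3), a log2 fold change of -0.40 with an interval from -0.62 to -0.18 (limma, adjusted p = 0.0155). Only leaving out overexpression replicate 1 (adjusted p = 0.0534, limma) or replicate 3 (0.0615) ended the call among the settings tried, and the log2 fold change ranged from -0.47 to -0.29.

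Class I chitinases, the group of Cht1, Cht2 and Cht3, carry a chitin-binding domain in front of the catalytic one. Cht1 (LOC_Os06g51060) and Cht3 (LOC_Os06g51050) have nearby locus numbers on chromosome 6, and Cht2 (LOC_Os05g33130) is on chromosome 5. Cht1, Cht2 and Cht3 did not pass the test. Cht1 was at 112, 132 and 140.2 FPKM in the wild type and 148, 149 and 134 in the overexpression line, and the ranges overlapped. The difference of the means, 128 ± 14.6 and 144 ± 8.43 FPKM, corresponds to a log2 fold change of 0.17 (95% interval -0.05 to 0.38; limma, adjusted p = 0.203). Cht3 was at 51.2, 36.5 and 40.4 FPKM in the wild type and at 36.3, 36.7 and 31.8 in the overexpression line, again with overlap. Its log2 fold change was -0.27 (interval -0.55 to 0.01; adjusted p = 0.118), and it passed only when wild-type replicate 2 was left out (adjusted p = 0.0319, limma). Cht2 was the least abundant of the 8 in both genotypes. It was at 8.48, 9.69 and 7.46 FPKM against 9.01, 9.77 and 8.99, a log2 fold change of 0.11 (interval -0.10 to 0.32; adjusted p = 0.39). The lowest read count behind any value of the 8 genes was also that of Cht2, at 175 reads.

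Cht6 (LOC_Os02g39330, chromosome 2) was at 19.1, 19.6 and 18.0 FPKM in the wild type and at 17.4, 18.6 and 17.2 in the overexpression line. The log2 fold change of Cht6 was -0.09 (interval -0.24 to 0.06; limma, adjusted p = 0.33), with overlapping ranges. The direction turned, to 0.02, under scaling by recovered reads.

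LOC_Os03g04060 (chromosome 3) was listed as Cht10, but RefSeq places that name on chromosome 1 and gives Cht11 on chromosome 3 the same gene length, so the gene is called by its locus number. It was at 27.2, 26.1 and 25.8 FPKM in the wild type and at 35.1, 30.5 and 28.0 in the overexpression line. The groups did not overlap, with means of 26.4 ± 0.726 and 31.2 ± 3.56 FPKM (SD, n = 3). The log2 fold change was 0.23, with an unadjusted interval of 0.03 to 0.43, and the adjusted p of 0.0699 (limma) missed the threshold. Under 5 of the 19 other settings it passed, with adjusted p of 0.0446 for median-ratio scaling, 0.0276 for quantile normalization, 0.0271 for equal FPKM sums, 0.0173 for scaling by recovered reads and 0.0497 without overexpression replicate 3.

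**Figure D2:**
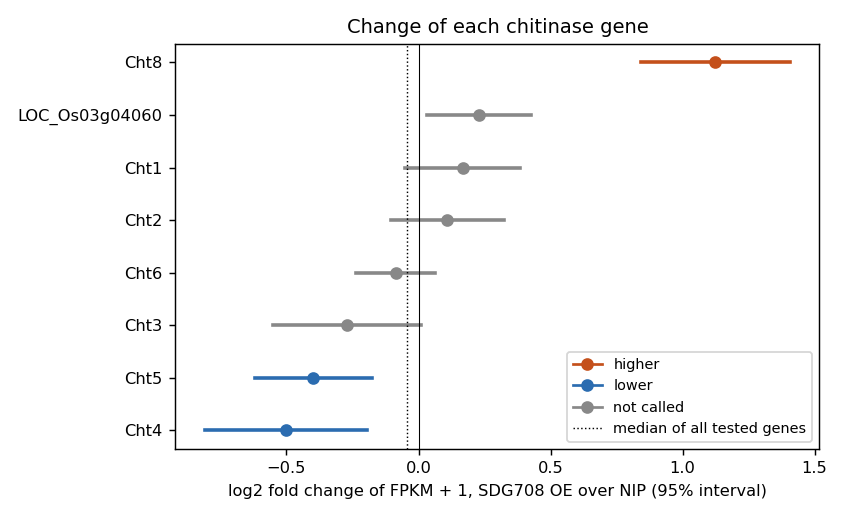
Log2 fold change of FPKM + 1 of each chitinase gene, SDG708 overexpression line over NIP, with the 95% interval from limma, which is not adjusted for the number of genes; colour marks genes called higher or lower at an adjusted p below 0.05. Cht8 at 1.12 stands to the right, Cht5 and Cht4 lie below 0, and the interval of LOC_Os03g04060 leaves out 0 although it was not called.

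The authors' deposited table also gives a log2 fold change and a p-value for each gene. In the authors' deposited table, after adjustment here over 31262 genes, 5 of the 8 genes passed: Cht8 (log2 fold change 1.16, adjusted p = 1.31e-25), LOC_Os03g04060 (0.24, 0.0165), Cht3 (-0.29, 0.0225), Cht4 (-0.53, 2.03e-05) and Cht5 (-0.41, 1.79e-05). The authors' deposited table called 12.7% of all genes higher and 16.2% lower after the same adjustment. The 2 genes that rose and 3 that fell there differ from the calls above by LOC_Os03g04060 and Cht3. The sources used here do not say whether those p-values had already been adjusted.

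In the wild type the order of mean FPKM was Cht5, Cht4, Cht1, Cht3, LOC_Os03g04060, Cht6, Cht8 and Cht2. Only Cht5 and Cht4 overlapped in range, although Cht5 was above Cht4 in all 3 libraries, and the ranges of every other neighbour in that order were apart. In the overexpression line the order was Cht5, Cht1, Cht4, Cht3, Cht8, LOC_Os03g04060, Cht6 and Cht2. Here Cht3 and Cht8 overlapped, as did Cht8 and LOC_Os03g04060, so that Cht8 had moved from the seventh place to a level that could not be separated from Cht3 or LOC_Os03g04060 by range.

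**Figure D3:**
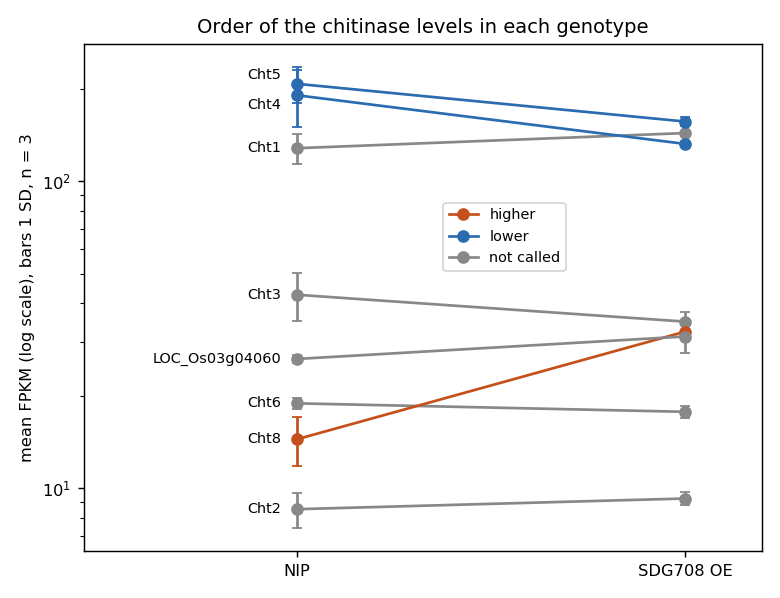
Mean FPKM of the 8 chitinase genes on a log scale in NIP and in the SDG708 overexpression line (SDG708 OE), with 1 SD, n = 3; colour marks the call. Cht8 crosses Cht6 and reaches Cht3 and LOC_Os03g04060, while Cht1 and Cht4 change places.

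The 8 genes together summed to 702, 583 and 626 FPKM in the wild type and 569, 572 and 532 FPKM in the overexpression line, with no test. The difference of the means was -79.5 FPKM, and -46.9 FPKM without wild-type replicate 1. These sums use the FPKM as deposited, and the size of the difference depends on the scaling. Scaling by recovered reads moved the log2 fold change of Cht1 from 0.17 to 0.27, of Cht4 from -0.50 to -0.39 and of Cht5 from -0.40 to -0.29. Cht8 held 1.63%, 2.84% and 2.45% of the sum in the wild type and 5.84%, 5.87% and 5.68% in the overexpression line. The share of Cht4 was 29.7% ± 3.46 against 23.7% ± 0.783, that of Cht5 32.5% ± 1.57 against 28.1% ± 0.386, and that of Cht1 20.3% ± 3.82 against 25.7% ± 0.50 (SD, n = 3). Cht1, Cht4 and Cht5 made up 82.5% ± 0.983 of the sum in the wild type against 77.5% ± 0.599 in the overexpression line. These 3 genes had the highest mean FPKM in both genotypes, so their large share describes that order and is no separate result.

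Within the pairs with nearby locus numbers, the log2 ratio of Cht3 to Cht1 (FPKM + 1) was -1.11, -1.83 and -1.77 in the wild type and -2.0, -1.99 and -2.04 in the overexpression line. The difference of -0.44 between the means gave an exact permutation p of 0.1, the smallest allowed, and 0.2 after adjustment over 2 pairs. Without wild-type replicate 1 the difference was -0.21. The ratio of Cht4 to Cht5 was -0.04, -0.30 and -0.07 against -0.24, -0.28 and -0.20, a difference of -0.10 (exact permutation p = 0.4). Paralogs may share reads, and the sources used here do not say how such reads were counted. Wild-type replicate 1 was the highest wild-type library for Cht3, Cht4, Cht5 and LOC_Os03g04060 and the lowest for Cht1 and Cht8.

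The 20 other listed loci, called other chitinases below, hold chitinases and relatives. Some are listed only as chitinase-like or xylanase-inhibitor-like, and the list does not say which GH18 loci are inhibitor-like. Of the 20, 19 could be tested, of which 5 rose, 8 fell and 6 did not pass, with a median log2 fold change of -0.11. Over all tested genes 14.3% rose and 20.0% fell, at a median of -0.04. Without overexpression replicate 1 or 2, only 3 rose. The GH19 group without the 8 genes holds 3 of these loci. Its only called gene was Cht9 (LOC_Os05g33140), next to Cht2 in locus number and named after its values were seen, which rose from 31.7 ± 0.870 to 43.6 ± 1.57 FPKM (log2 fold change 0.45, adjusted p = 0.00136, limma). GH18 enzymes are a separate chitinase family, and 4 of the 16 tested loci listed with them rose and 8 fell (all tested genes 14.3% and 20.0%), with a median of -0.23. The names of these loci rest on the list alone. The 6 tested GH18 loci on chromosome 11, grouped after their values were seen, all fell, with log2 fold changes from -0.35 to -1.16. The smallest change, that of LOC_Os11g47560, is not firm: its call held under 8 of 18 alternatives and was lost without wild-type replicate 1 or 2 or any 1 overexpression library (limma adjusted p from 0.0524 to 0.105). LOC_Os11g47520 missed the threshold without wild-type replicate 3 (0.0501). LOC_Os11g47600 fell from 25.4 ± 1.12 to 10.8 ± 0.617 FPKM (SD, n = 3; limma, adjusted p = 2.2e-05), and LOC_Os11g47530 fell from 9.69 ± 0.329 to 4.26 ± 0.50 FPKM. LOC_Os11g47510 fell by 0.96 on the log2 scale. LOC_Os10g28080 rose from 19.5 ± 2.83 to 36.2 ± 0.653 FPKM (log2 fold change 0.87, adjusted p = 0.00065, limma), and LOC_Os01g47070, named after its values were seen, rose from 51.6 ± 6.14 to 89.5 ± 2.89 FPKM.

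Chitin is perceived in rice by LysM receptors such as CEBiP and the kinase OsCERK1, which pass the signal to receptor-like cytoplasmic kinases and a MAP kinase cascade. Of the 9 genes of this list tested, 5 fell, 4 did not pass, 0 rose, and the median log2 fold change was -0.23, against 20.0% lower and 14.3% higher over all tested genes. The names OsMKK4, OsRLCK185, OsRLCK176 and LYP6 had no match in RefSeq and rest on the list alone. OsMKK4, a MAP kinase kinase, fell from 110.4 ± 3.24 to 75.1 ± 4.40 FPKM (log2 fold change -0.55, adjusted p = 0.000844, limma). OsRLCK185, a receptor-like cytoplasmic kinase, had a log2 fold change of -0.32 (adjusted p = 0.0235, limma), a call lost under 7 of the 19 other settings. The MAP kinase OsMPK3 fell by 0.29 on the log2 scale (adjusted p = 0.00719, limma) and kept its call in all 19. OsRac1, a small GTPase, was the only gene of the list with a positive log2 fold change, 0.04, at an unadjusted p of 0.703 (limma), and voom on the recovered reads likewise called 0 genes of the list higher. OsCERK1 fell by 0.23 on the log2 scale (adjusted p = 0.0255, limma), although this call was lost under 10 of 19 other settings. The count of the list that fell was 2 without wild-type replicate 3 or without overexpression replicate 2 or 3, and 3 without overexpression replicate 1.

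**Figure D4:**
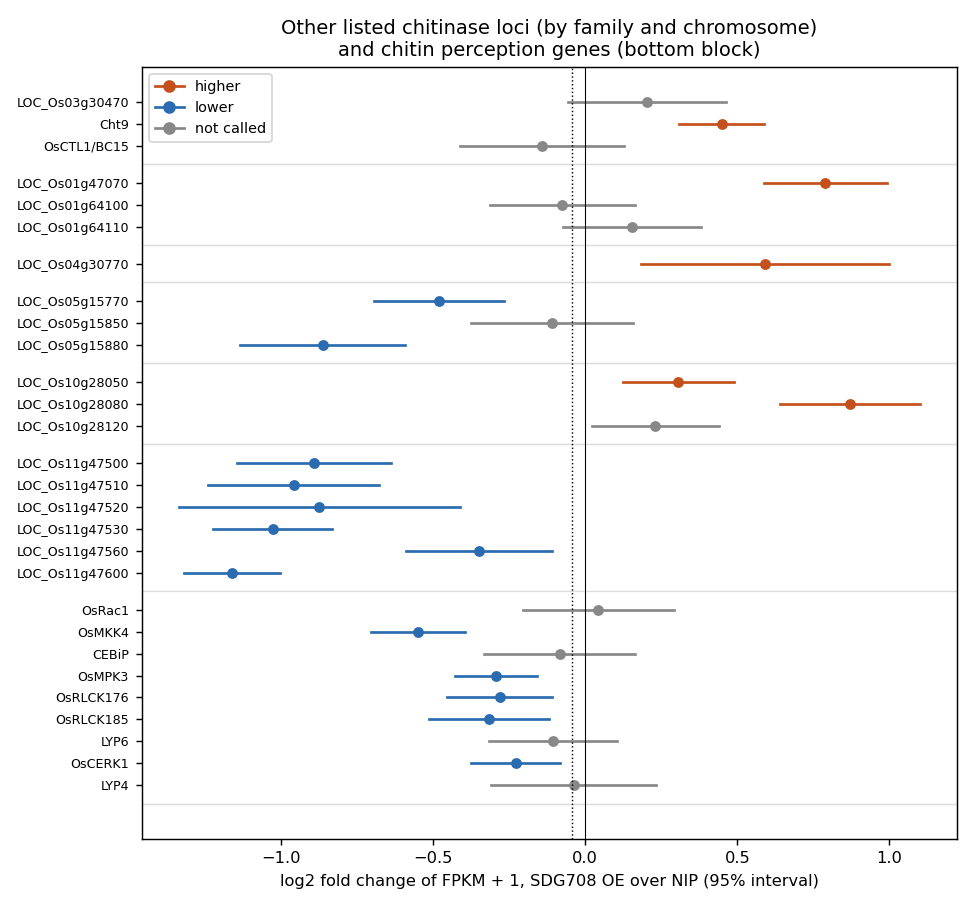
Log2 fold change of FPKM + 1 with its 95% interval (limma, not adjusted for the number of genes). The other listed loci of chitinases and relatives are ordered by family and chromosome, with the chitin perception genes in the bottom block. Colour marks the call and the dotted line is the median of all tested genes, -0.04. The GH18 loci of chromosome 11 all lie left of 0, and no gene of the perception block is called higher.

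Green shoot markers moved together with the genotypes. All 7 genes on that list were called higher in the overexpression line (14.3% of all tested genes), at a median of 0.82 on the log2 scale, and their summed FPKM was 6896 to 8820 in the wild type and 13224 to 13655 in the overexpression line. Of 6 root markers, 1 was tested and not called, and Lsi2 and OsNRT2.1 were listed at 0 in all libraries. The summed root markers were 2.47 to 3.47 FPKM in the wild type and 2.55 to 2.96 FPKM in the overexpression line. Lsi1, a silicon transporter of roots, made up most of these sums, at 2.39 to 3.27 FPKM in the wild type against 2.39 to 2.66 FPKM in the line, and the other 5 root markers were below 1 FPKM in every library. The part of these green shoot levels in the chitinase values was not tested.

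Among 36 other listed genes tested, those whose log2 FPKM + 1 was most like that of Cht8 over the 6 libraries were LOC_Os10g28080 (Pearson r = 0.998), CAB2R (0.994) and PsbS (0.991), the last a photosystem protein and CAB2R a light-harvesting one. The name PsbS had no match in RefSeq either. Cht8 was taken as the member with the largest change, and r was computed over both genotypes. A gene that differs clearly between the genotypes therefore gets a strong r, as did LOC_Os11g47500, which fell (-0.995). The values describe only these 6 libraries and do not show that the genes vary together within a genotype.

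**Figure D5:**
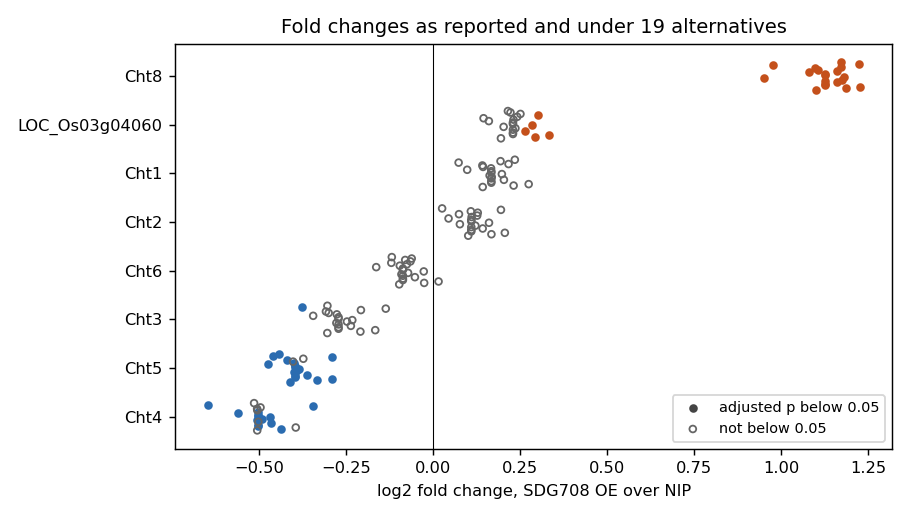
Log2 fold changes of the 8 chitinase genes as reported and under 19 other settings; filled points have an adjusted p below 0.05 and open points do not. Cht8 is filled in every setting, Cht5 in all but 2, and Cht4 has 7 open points among the alternatives.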

How the data were processed

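RNA from 14-day-old seedlings was prepared as stranded, polyadenylated libraries, per the labels' protocols. Values were deposited as FPKM for 6 libraries, beside log2 fold changes and p-values deposited by the authors, per the file headers. Among the authors' tools, per the submitters' processing notes, were HISAT2, featureCounts and DESeq2. The sources used here give no build, annotation or strand setting. The wild-type columns are assigned to the group, since a digit in their names is not explained.

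FPKM steps gave whole reads for 99.9% of genes with any read (tolerance 0.02). The recovered reads, library sizes and gene lengths were used for read counts and replicate noise. They were also used in the alternatives of voom, scaling by recovered reads and removal of the length trend. With limma's voom, 2707 genes were called higher and 3954 lower. Genes with FPKM of at least 1 in at least 3 libraries were tested with limma 3.58.1 (R 4.3.3) on log2(FPKM + 1) with Benjamini-Hochberg adjustment; fold changes of low genes are understated. The fit was tested on simulated data. Calls for single genes came from limma, with exact two-sided permutation tests beside them. Pairs used the exact permutation tests alone. All 8 genes, up to 3 called genes per list and the 3 most like Cht8 were to be named. Members and lists were chosen with earlier results of these data known. Names with a RefSeq symbol (ASM3414082v1) were checked by chromosome, and 2 listed genes outside the 8 whose symbols sit elsewhere were left out. LOC_Os03g04060, of the 8, failed this check too but was kept under its locus number. LOC_Os03g30470, listed as Cht11, was also kept by locus number among the other GH19 loci. Its implied length of 1082 differs from the 1360 of that RefSeq gene. The alternatives were other pseudocounts, filters, scalings, variance models, sample sets and a replicate block. A planned protein comparison was not made.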

Additional observations from a re-analysis of the deposited data

How the results depend on the processing

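Of 152 values for the 8 chitinase genes under 19 alternatives, 136 kept their direction and side of the threshold. The count of members called lower went from 2 to 1 with no filter on low values, with scaling by recovered reads (reads-in-table scaling) and with overexpression replicates 1 and 2 as 1 sample. The count called higher went from 1 to 2 with median-ratio, quantile, equal-sum (TPM) and reads-in-table scaling. Over all tested genes the count called higher rose too in these settings, from 2654 to 2998, 2772, 3195 and 3694. Over all genes, 3706 were lower in the main fit, 2068 with reads-in-table scaling and 2319 with the merged sample. With no filter on low values 3017 were lower, and with a mean FPKM of at least 5, 1592 were higher. These filters test other sets of genes than the 18569 of the main fit, so their counts are not directly comparable. For the other chitinases and relatives, 3 rose with the merged sample or with the trend on gene length removed, an alternative chosen after seeing the data. For chitin perception, 3 fell with quantile or TPM scaling or the length trend removed, and 2 with reads-in-table scaling or the merged sample. Leaving out 1 library gave 1748 to 3078 genes higher and 1960 to 4098 lower; 1 to 2 members higher and 0 to 3 lower; 3 to 7 other chitinases higher and 7 lower; and 2 to 5 perception genes lower. It gave a summed FPKM difference from -106.4 to -46.9, a Cht8 share difference from 3.15 to 3.76 points, and log2 ratio differences from -0.57 to -0.21 (Cht3 to Cht1) and -0.19 to -0.05 (Cht4 to Cht5).

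The sign turned for values near 0: Cht6 to 0.0156, CEBiP to 0.0191 and LYP4 to 0.0188 with reads-in-table scaling; LYP4 to 0.0164 with the merged sample and 0.0256 with the length trend removed; OsRac1 to -0.034 with quantile scaling. Leaving out a library gave CEBiP -0.17 to 0.0461, LYP4 -0.14 to 0.0505 (0.0244 without wild-type replicate 1), and OsRac1 -0.0066 to 0.13 (all log2 fold changes). The cause was not tested. With the replicate number as a replicate block, 2493 genes were higher and 3126 lower, and all 8 members kept their calls, while OsCERK1 lost its call (adjusted p = 0.0629, limma). Same-numbered libraries did not deviate together over all tested genes (r from -0.04 to -0.002). This cannot show whether they shared a growth or preparation step, which the labels do not give. With 3 libraries a genotype, small differences of Cht2 and Cht6 cannot be resolved.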
